A study of Mus musculus with 6 samples.

Results

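Non-cycling C1q macrophages of the fracture callus were taken from 6 single-cell libraries by their UMI counts (a UMI, or unique molecular identifier, tags 1 captured transcript). A barcode was a member if it held at least 1000 UMIs with at most 10% from mitochondrial genes, at least 10 UMIs of C1qa, C1qb and C1qc together, fewer than 5 of the osteoclast genes Atp6v0d2, Ocstamp and Dcstamp, fewer than 2 of the cell-cycle genes Top2a and Mki67, and none of the endothelial gene Cdh5. Of 38001 barcodes that passed the filters on depth and mitochondrial UMIs, 2423 (6.38%) were members. These gene values chose the cells, so their levels are a description. Counts within gene lists leave them out unless stated, while counts over all genes tested include 7 of these 9 genes.

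Calluses were collected at 14 dpf (days post-fracture) from 12-week-old mice with a femoral fracture, and the labels describe the callus as isolated mouse by mouse. The study's text gives mouse numbers for this experiment that differ between its results and its methods, so that n here counts libraries. The 3 control libraries are from Piezo1 f/f mice, in which loxP sites flank the gene for the mechanosensitive channel Piezo1. The 3 libraries labelled knockout are from Col2a1CreERT2; Piezo1 f/f mice (Piezo1 Col2a1), and tamoxifen, which releases this Cre, was given to all mice of both groups (75 mg/kg daily, 5 doses beginning on day 5). The genotypes are those of the study's methods, because the sample labels write Piezo3 for the knockout libraries and wt for the controls. The Cre is driven by Col2a1, a gene of cartilage cells, so a macrophage is not the cell in which it is meant to act. Levels are given in CPM, the UMIs of a gene per 1000000 UMIs of the cells summed, and in scaled CPM where libraries were also scaled to each other. Piezo1 was measured in the members at 52.1, 43.8 and 55.9 scaled CPM in control libraries 1 to 3 and at 61.2, 41.1 and 38.9 in knockout libraries 1 to 3, with overlapping groups (log2 fold change -0.12, SE 0.26). A 3′ count does not show whether an exon was deleted and therefore does not check the genotype.

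Tissue macrophages take up dead cells and debris, degrade them in lysosomes and send out signals for repair. C1q, which starts the classical complement pathway and also coats dying cells, is made largely by macrophages themselves. Macrophages differ among themselves in the mannose receptor Mrc1, in the lipid-sensing receptor Trem2 with its companion genes such as Gpnmb and Spp1, and in MHC class II, the molecules that present peptides to helper T cells. In a callus they lie beside monocytes, from which many of them arise, and beside osteoclasts, which share their lineage and resorb cartilage and bone.

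The deposited matrices held 69361237, 77384286 and 80735192 UMIs in control libraries 1 to 3, and 57626530, 103784364 and 102513582 in those labelled knockout. Members numbered 48, 364 and 696 in the controls and 84, 786 and 445 in the knockout libraries, with median depths of 15188, 6940 and 6089 UMIs and of 16338, 7224 and 7758 UMIs per cell. Control library 1 and knockout library 1 thus hold few members of high depth, and both were counted with another Cell Ranger version (6.1.1) than the others (6.1.2). The matrices of replicate 3, control and knockout alike, list other genes than the rest, and values were computed over the 52081 gene identifiers that all libraries list.

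Knockout library 3 stood apart in sex. Xist, the RNA that coats the inactive X chromosome, reached 583 scaled CPM in its members and at most 0.217 in the other libraries. The Y-linked genes Ddx3y, Uty, Eif2s3y and Kdm5d were at 0 in its members and present in the other 5 libraries (Ddx3y 66.1 to 119). The methods describe the mice as male. Results that lean on this library are therefore also given without it.

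Of 3662 filtered barcodes with at least 10 C1q UMIs, 794 carried the cell-cycle genes, 511 carried Cdh5 and 295 carried the osteoclast genes, and some carried more than 1 of these. The label held up in other genes, since 2329 members (96.1%) had a UMI of at least 4 of 8 macrophage or leukocyte genes that the rule did not use (Csf1r, Cd68, Adgre1, Fcgr1, Mertk, Aif1, Laptm5 and Ptprc). Just inside the threshold, at 10 to 12 C1q UMIs, 114 of 139 members (82.0%) did so, against 125 of 192 (65.1%) of otherwise matching barcodes at 7 to 9. C1q UMIs were not restricted to members, and the other filtered barcodes of a library had a median of 0 or 1. At least 1 was found in 52.3%, 18.8% and 26.1% of these barcodes in control libraries 1 to 3. In knockout libraries 1 to 3 the share was 62.5%, 66.7% and 55.4%, above every control library. The part of this background in the choice of members was not tested. No member's barcode sequence occurred as a member of a second library. Members with more than 5% of their UMIs from 14 stromal and cartilage genes numbered 119 (4.91%), of which knockout library 3 held 51. A further check with Scrublet, which scores how much a barcode resembles a mixture of 2 cells, put 186 members (7.68%) among the highest scores of their libraries.

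Members made up 1.87% (95% Wilson interval 1.42 to 2.48), 4.33% (3.92 to 4.79) and 8.28% (7.71 to 8.89) of filtered barcodes in control libraries 1 to 3. In the libraries labelled knockout they made up 3.93% (3.18 to 4.83), 8.26% (7.73 to 8.83) and 6.38% (5.83 to 6.98). The intervals cover counting error only, and the libraries differed by far more than that. Group means were 4.83% ± 3.23 (SD, n = 3) for control and 6.19% ± 2.18 for knockout. They differed by 1.36 percentage points, less than either SD (exact permutation test over libraries, two-sided, p = 0.700, where 3 libraries against 3 allow no p below 0.1). Without control library 1 the difference was -0.116, and among barcodes with a UMI of the leukocyte genes Ptprc, Tyrobp or Laptm5 it was 0.0710.

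The C1q genes lie side by side on the minus strand of chromosome 4 (GRCm38; C1qb at chr4:136880129-136886187, C1qc at chr4:136889804-136893065 and C1qa at chr4:136895917-136898803) and encode the chains of 1 molecule. Together they gave 6178 to 11677 CPM of a library's members, and the chains stood in nearly the same proportion in every library. C1qa took 35.3% to 40.7% of the C1q UMIs, C1qb 36.7% to 41.5% and C1qc 20.1% to 24.9%.

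The most abundant transcripts outside the mitochondrial and ribosomal protein genes were those of iron storage, the cytoskeleton, lipid transport and the lysosome. A 3′ library counts 1 end of each transcript, so levels are compared between genes without a correction for length. Fth1, the ferritin heavy chain, led with a mean of 18912 CPM over the 6 libraries, before Tmsb4x (14420), which binds actin, and Apoe (13727), the carrier of lipids. The nuclear RNA Malat1 followed at 13564, Lyz2, the lysozyme of myeloid cells, at 10815 and the ferritin light chain Ftl1 at 10616. The lysosomal protease Ctsb (4810), the MHC class II invariant chain Cd74 (4211), Spp1 (4179), Psap (3558) and Ctsd (3267) were also among the leading 20. So were Col1a1 (4046), Sparc (4046) and Col2a1 (3905), which are genes of bone and cartilage cells. Col2a1 ranged from 14.6 to 10242 CPM between libraries.

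Neutrophil barcodes of the same libraries showed a like range. In these barcodes, chosen by at least 50 UMIs of S100a8 and S100a9, at least 1 of Csf3r or Retnlg and fewer than 10 of C1q, Col2a1 stood at 2722, 2925 and 976 CPM in the control libraries and at 8967, 57.4 and 9579 in the knockout libraries. The members' own values were 3025, 935 and 441 and then 8771, 14.6 and 10242. Knockout library 2 was thus low, and knockout libraries 1 and 3 high, in both kinds of cell.

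Set against all other filtered barcodes of the same libraries, the members had the highest ratios for a mixed set of genes beside C1q. Ccl8, a chemokine for monocytes, was 26.5 times as high in the mean of the 6 libraries (253 against 9.52 CPM), though the ratio ran from 4.38 to 70.8 between libraries. Ccl12 (25.9 times), the Fc receptor-like gene Fcrls (25.5), Mrc1 (24.4), Ms4a7 (21.9), Apoe (21.4), the prostaglandin synthase Hpgds (20) and Pf4 (19.2) came next among genes of at least 100 CPM, followed by the complement receptor C3ar1 (18.2) and Adgre1 (18.2), which encodes the F4/80 antigen. Trem2 was 13.6 times as high. These ratios describe cells that C1q counts chose, and no test was made of them.

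**Figure D1:**
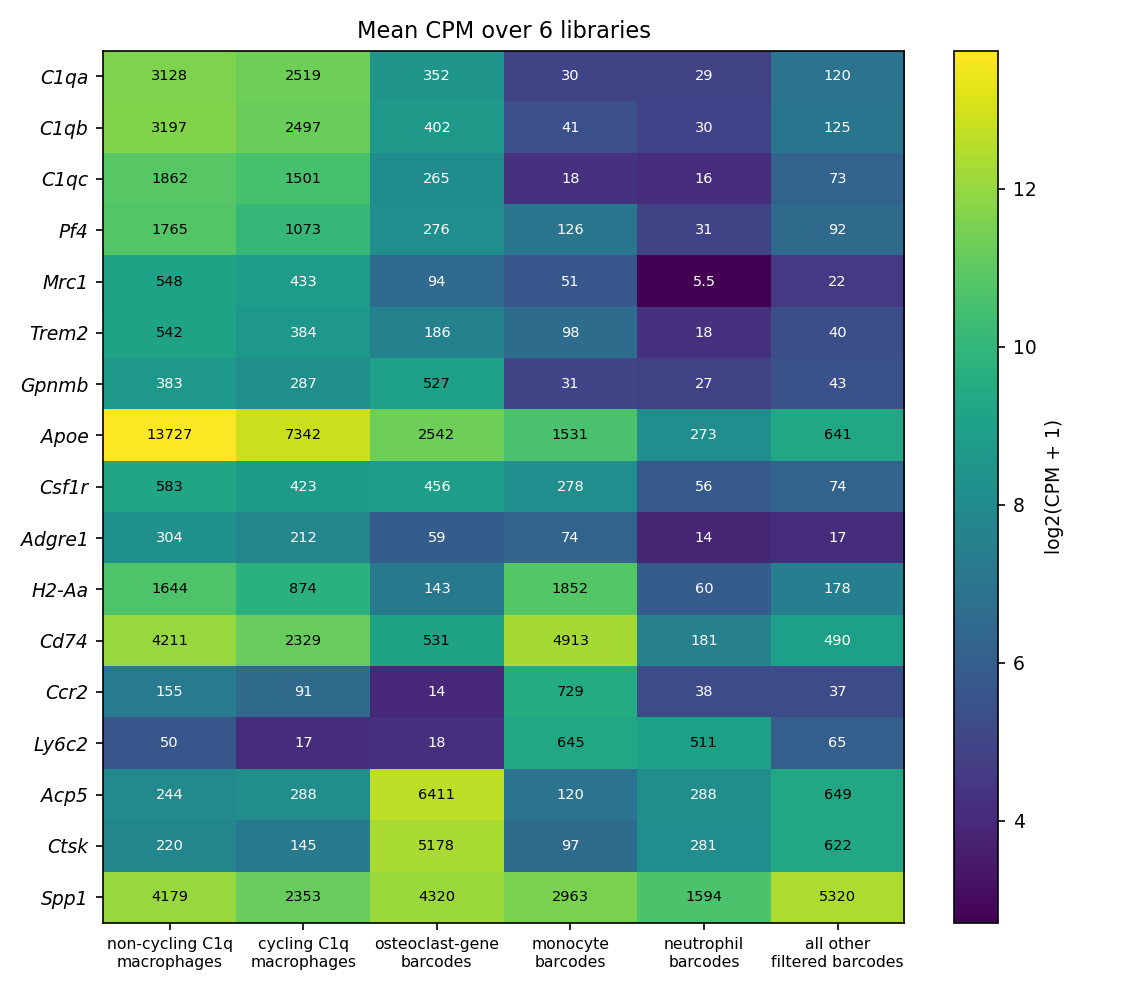
Mean CPM over 6 libraries (colour, log2 of the value + 1, with the value printed in each cell) for marker genes (rows) in the members and in comparison barcodes (columns); the last column holds every filtered barcode that was not a member. C1q, Pf4, Mrc1 and Trem2 were highest in the 2 columns of C1q macrophages, Cd74 and H2-Aa were as high in monocyte barcodes, and Acp5 and Ctsk were highest in osteoclast-gene barcodes.

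Cycling C1q macrophages, taken by the same rule but with at least 2 UMIs of Top2a and Mki67, numbered 523 barcodes. The heat map of marker levels sets them beside the members. Apoe averaged 7342 CPM there against 13727 in the members and Pf4 1073 against 1765, and both were higher in the members of all 6 libraries. H2-Aa was also lower in cycling cells in 6 of 6 libraries (874 against 1644). Cycling barcodes were deeper, with median depths of 12973 to 25890 UMIs, and these differences were not tested.

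Markers of neighbouring cell types were present at unequal levels. The osteoclast genes Acp5 and Ctsk averaged 244 and 220 CPM, against 6411 and 5178 in barcodes with at least 5 UMIs of the osteoclast genes of the rule. The monocyte genes Ly6c2 and Ccr2 averaged 49.6 and 155 CPM, against 645 and 729 in barcodes with at least 3 UMIs of both together, fewer than 10 of C1q, fewer than 50 of S100a8 and S100a9 and the rule's limits on osteoclast genes and Cdh5. Ly6c2 and Ccr2 chose these monocyte barcodes, so their higher level there follows from the choice. Of the list of dendritic cell genes, Flt3 and Zbtb46 reached at most 3.16 and 2.92 scaled CPM in any library, and Xcr1 and Clec9a at most 1.08. Cd209a, Ccr7, Siglech and Dpp4 of this list reached at most 5.48, 2.92, 2.78 and 5.42. Its other genes, Cd83, Itgax, Fscn1 and Batf3, reached more, at 248, 50.4, 32.8 and 19.3 in their highest libraries. Neutrophil genes summed to 142, 3527 and 1075 scaled CPM in the control libraries and 1078, 4568 and 3691 in the knockout libraries, with S100a8 the most abundant.

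Mrc1, Trem2 and Gpnmb were each found in part of the cells. To compare cells of unequal depth, each was thinned to 1000 UMIs over the shared genes, which left out 3 members. Mrc1 (chr2:14229392-14332057) was then detected in 53.2%, 45.9% and 21.4% of members in control libraries 1 to 3 and in 42.9%, 38.8% and 34.6% in knockout libraries 1 to 3. Control library 3 was the lowest of all and the other controls the highest. Trem2 (chr17:48346401-48354147) was found in 40.4%, 37.1% and 44.7% against 26.2%, 47.7% and 41.6%, with knockout library 1 the lowest. For Gpnmb (chr6:49036546-49070929), a glycoprotein of lysosomes, the shares were 8.51%, 23.4% and 26.4% against 17.9%, 14.5% and 27.0%.

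None of the 3 genes separated the groups. The difference between the means of the shares was -1.41 percentage points for Mrc1, -2.24 for Trem2 and 0.355 for Gpnmb (two-sided exact permutation test, p = 0.900 for each, adjusted p = 0.900 over the 4 shares tested). In neutrophil barcodes, which should lack these genes, at most 2.5% had a thinned UMI of Mrc1, 2.38% of Trem2 and 1.35% of Gpnmb in any library, with median depths of 2736 to 6754 UMIs. Unthinned, 51.0% to 85.4% of the members of a library had a UMI of Mrc1, 79.8% to 95.8% of Trem2 and 41.6% to 61.3% of Gpnmb.

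Members with a Gpnmb UMI had a Trem2 UMI more often than those without. Trem2 was detected in 50%, 49.4% and 54.9% of control members with a Gpnmb UMI and in 39.5%, 33.3% and 41.0% of those without, and in 40%, 56.1% and 49.2% against 23.2%, 46.3% and 38.8% in the knockout libraries. The order was the same in 6 of 6 libraries, although only 4 members of control library 1 had a thinned Gpnmb UMI. For Mrc1 the order was less regular: it was detected in 42.1%, 47.4% and 21.5% of control members with a Trem2 UMI and in 60.7%, 45% and 21.3% of those without, and in 45.5%, 40.9% and 38.4% against 41.9%, 36.8% and 31.9% in the knockout libraries. Control library 1 thus had the opposite order to the other 5. These pairs share library and depth and carry no test.

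MHC class II was detected in part of the members. Its chains H2-Aa, H2-Ab1 and H2-Eb1 are encoded within the histocompatibility region of chromosome 17 (chr17:34282744-34287823, chr17:34257689-34269419 and chr17:34305867-34316674). In cells thinned to 1000 UMIs, 1440 of 2420 members (59.5%) had none of their UMIs, 392 had 1 to 4, and 588 (24.3%) had 5 or more. Members therefore ranged from no detected MHC class II to a level at which these 3 genes gave at least 5 of every 1000 transcripts.

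The genes of class II and of the interferon response, described further on, share sequence elements near their start sites that are known from other cells, and 4 promoters are shown for that reason. Class II promoters carry a conserved Y box, whose core reads CCAAT and is bound by the factor NF-Y, and interferon-induced genes carry elements bound by STAT and IRF factors, for which the pattern searched was GAAA, any 2 bases, and GAAA again. Sequences run 5′ to 3′ in the direction of transcription from 250 bases before to 50 after the start, from RefSeq on GRCm38.p6, and capitals mark a match on either strand, where CCAAT on the other strand reads ATTGG.
H2-Aa promoter (chr17:34287774-34288073, minus strand): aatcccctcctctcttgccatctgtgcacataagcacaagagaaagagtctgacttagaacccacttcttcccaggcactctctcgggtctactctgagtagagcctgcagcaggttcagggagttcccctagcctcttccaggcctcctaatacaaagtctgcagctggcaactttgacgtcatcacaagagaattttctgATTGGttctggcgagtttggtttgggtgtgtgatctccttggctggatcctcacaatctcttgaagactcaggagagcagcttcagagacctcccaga
H2-Eb1 promoter (chr17:34305617-34305916, plus strand): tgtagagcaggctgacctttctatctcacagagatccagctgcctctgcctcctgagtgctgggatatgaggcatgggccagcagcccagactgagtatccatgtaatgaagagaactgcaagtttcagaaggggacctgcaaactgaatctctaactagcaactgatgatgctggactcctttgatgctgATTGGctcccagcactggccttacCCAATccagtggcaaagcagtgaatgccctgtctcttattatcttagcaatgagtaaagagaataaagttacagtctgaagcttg
Ifit3 promoter (chr19:34583279-34583578, plus strand): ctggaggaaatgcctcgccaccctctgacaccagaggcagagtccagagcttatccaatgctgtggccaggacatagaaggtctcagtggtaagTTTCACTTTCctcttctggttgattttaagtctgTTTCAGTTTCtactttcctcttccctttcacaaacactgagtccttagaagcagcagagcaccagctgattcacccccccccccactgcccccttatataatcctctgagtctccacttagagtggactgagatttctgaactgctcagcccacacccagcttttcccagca
Rsad2 promoter (chr12:26456403-26456702, minus strand): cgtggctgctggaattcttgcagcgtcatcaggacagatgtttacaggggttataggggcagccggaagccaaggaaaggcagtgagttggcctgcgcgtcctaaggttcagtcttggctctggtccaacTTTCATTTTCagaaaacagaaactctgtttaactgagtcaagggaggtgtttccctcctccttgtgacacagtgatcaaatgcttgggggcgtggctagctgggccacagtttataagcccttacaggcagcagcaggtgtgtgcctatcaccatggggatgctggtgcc
Of the 10 genes of the class II list, 7 had a promoter in the table, and each of them held CCAAT, as did 37.4% of all 32851 promoters. The interferon list had 13 of its 18 genes in the table, and 9 of these held the interferon pattern (Bst2, Cxcl10, Gbp2, Ifit1, Ifit3, Ifitm3, Isg15, Rsad2 and Stat2), which occurred in 3.44% of all promoters. H2-Ab1, Cd74, Ciita, Mx1 and Usp18 were among the genes with no entry. These matches describe letters in a window and show no binding.

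The share of members with 5 or more class II UMIs of 1000 was 42.6%, 33.5% and 26.4% in control libraries 1 to 3 (95% Wilson intervals 29.5 to 56.7, 28.9 to 38.5 and 23.3 to 29.8). In knockout libraries 1 to 3 it was 13.1%, 20.7% and 20% (7.47 to 21.9, 18.0 to 23.6 and 16.5 to 24.0). Every control library was above every knockout library, 34.2% ± 8.08 (SD, n = 3) against 17.9% ± 4.19, but the interval of control library 3 overlaps those of knockout libraries 2 and 3, and control library 1 and knockout library 1 rest on 20 and 11 such cells.

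With a single class II UMI as the criterion, which was the measure set for testing, the shares were 59.6%, 51.6% and 41.8% in the controls and 20.2%, 36.6% and 38.0% in the knockout libraries. The means, 51.0% ± 8.90 and 31.6% ± 9.87, differed by -19.4 percentage points without overlap (exact permutation test, p = 0.1, the smallest that 3 against 3 allows, and adjusted p = 0.400 over the 4 shares). The difference therefore passed no threshold. Without thinning, the groups overlapped, at 85.4%, 76.9% and 58.2% against 53.6%, 71.0% and 65.4%, and the difference was -10.2. In neutrophil barcodes 2.69% to 9.41% had a thinned class II UMI.

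**Figure D2:**
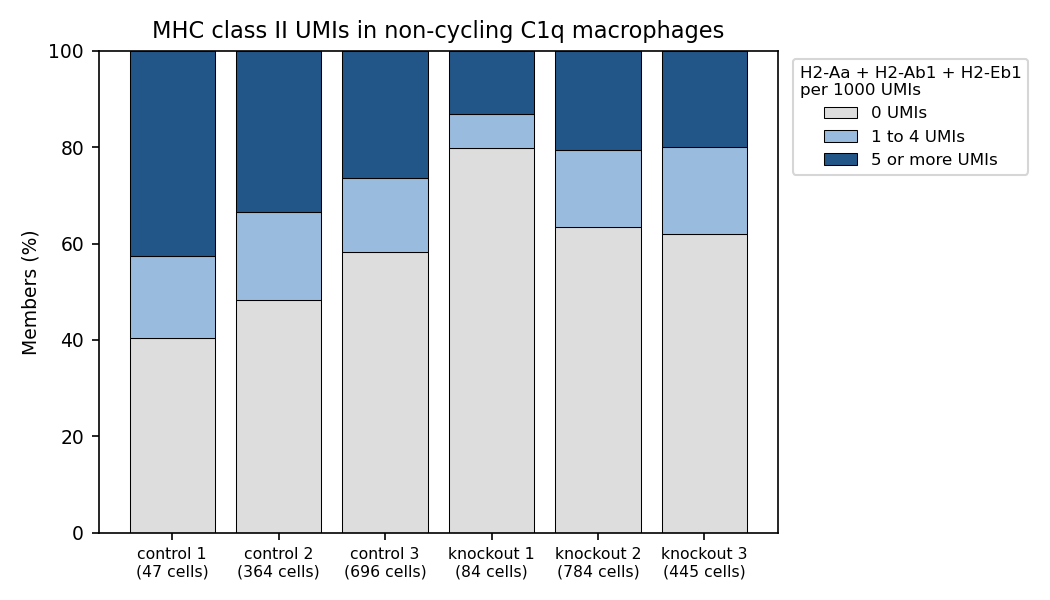
Share of members (%, stacked bars, 1 bar per library) with 0, 1 to 4, or 5 and more UMIs of H2-Aa, H2-Ab1 and H2-Eb1 after each cell was thinned to 1000 UMIs. The upper part of the bars, 5 or more UMIs, covers 26.4% to 42.6% of members in the control libraries and 13.1% to 20.7% in the knockout libraries.

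In cells with 5 or more class II UMIs, the groups overlapped for H2-Aa, H2-Eb1 and Cd74 and not for H2-Ab1. H2-Aa stood in such cells at 8000, 7926 and 6625 CPM in the controls and at 6182, 7654 and 6562 in the knockout libraries, and Cd74 at 17350, 18475 and 15332 against 11455, 21994 and 18921. H2-Eb1 stood at 6000, 6762 and 5962 against 3636, 6284 and 5146. H2-Ab1 was lower in every knockout library, at 7350, 6934 and 5886 against 4818, 5037 and 5011. The cells were chosen by these counts, so the levels are given as a description.

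Members with and without class II UMIs also differed in genes that are not part of antigen presentation. Of 1948 other genes of at least 100 CPM in either set, 108 were higher and 167 lower with class II in 6 of 6 libraries. Since the split used the same cells, these counts carry no test. The class II companions came first. Cd74 averaged 11596 CPM with and 285 without, and H2-DMa, a subunit of the complex that loads peptides, 330 against 34.3.

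Of 8 genes of the monocyte list at that level, 6 were higher on average on the class II side, 2 of them in every library, against 898 of all 1948 and 108 in every library. Fn1, fibronectin, went the other way (963 with against 1239 without, lower in 5 of 6 libraries). Ccr2, the receptor that brings monocytes into tissue, stood at 250, 250 and 316 CPM in class II-positive and at 0, 22.7 and 24.7 in class II-negative members of the controls, and at 647, 286 and 178 against 313, 52.3 and 18.1 in the knockout libraries. Plac8 (166 against 78.7 in the mean), from the same list, had this order in every library, as did Plbd1 (252 against 45.3), the cytokine Il1b (249 against 85.8), Cd52 (1427 against 747) and Btg2 (356 against 164), which are not on it. Btg2 belongs to the list of genes induced by tissue dissociation, all 15 of which were higher on average with class II, 5 of them in all 6 libraries (median log2 difference 0.35), with Hspa1a at 1117 against 496 and Hspa1b at 500 against 217. The part of dissociation in the split was not tested. Ighm, an immunoglobulin gene of B cells, was also among these genes (123 against 50.6), and the dendritic cell gene Flt3 stood at 2.04 against 0.

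On the class II-negative side, 7 of 19 lipid-associated genes, 10 of 19 lysosome and V-ATPase genes and 3 of 7 iron and heme genes were higher in all 6 libraries, against 167 of all 1948, and none of these lists held a gene with the opposite order in all 6. Their median log2 differences, with minus without class II, were -0.48, -0.39 and -0.70, against -0.04 over all genes. Stromal and cartilage genes were also higher there, 7 of 14 in all 6 libraries, and resident-type scavenger genes, 4 of 7. Spp1, osteopontin, had 5211, 5500 and 8583 CPM without and 679, 1202 and 3137 with class II in the control libraries, and 2299, 1302 and 3094 against 118, 868 and 1663 in the knockout libraries. Gpnmb averaged 511 without and 184 with class II UMIs, and the lysosomal protease Ctsd 4732 against 1964. Slc40a1, ferroportin, which exports iron, averaged 199 against 63.4, and Gclm, a subunit of the enzyme that makes the precursor of glutathione, 135 against 39.4. Among the markers of the label, Pf4 (2205 against 1154), Mrc1 (835 against 540) and Trem2 (634 against 501) were lower with class II in 6 of 6 libraries, and C1qa (3422 against 3563), C1qb and C1qc had no common order. Control library 1 contributed 28 cells with and 19 without class II UMIs, each thinned to 1000 UMIs, so its values for weak genes rest on few UMIs.

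**Figure D3:**
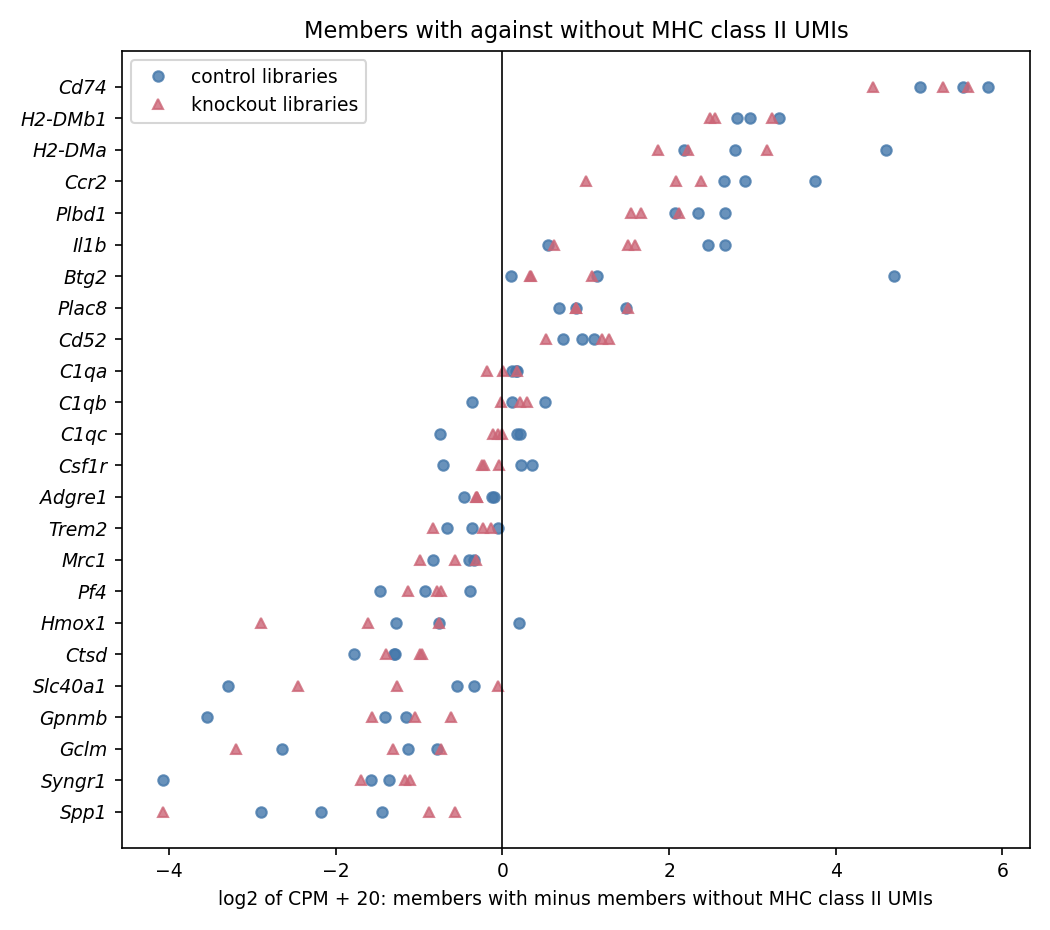
Difference between members with and without class II UMIs, as log2 of CPM + 20 after thinning (horizontal axis), for genes named in the text (rows), with 1 point per library (circles, control; triangles, knockout). Cd74, Ccr2 and Il1b lie to the right of 0 in all 6 libraries, Spp1, Gpnmb and Ctsd to the left, and the C1q genes around 0.

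To compare the genotype labels gene by gene, UMIs of all members were summed per library, scaled by the TMM method of edgeR, which sets libraries on a common level from the bulk of their genes, and tested with its quasi-likelihood test. Values from here on are scaled CPM unless CPM is written, and every log2 fold change is knockout minus control. Of 11691 genes tested, 0 (0%) passed a Benjamini-Hochberg adjusted p of 0.05, and 319 (2.73%) had an unadjusted p under 0.05, 162 of them higher (1.39%) and 157 lower (1.34%) in knockout. DESeq2 called 16 of 11678 genes (0.137%) on the same sums, 4 higher and 12 lower, and edgeR without its filter on low counts called 149 of 23350 (0.638%). The 149 included genes that were high mainly in a single library, such as Xist (knockout library 3) and Hbb-bs (control library 3). On simulated counts with the depth of these libraries, the edgeR test found 77.5% of genes lowered by 2 and 92.5% of genes raised by 2 on the log2 scale, but 12.5% and 22.5% at a change of 1. The changed genes were drawn above a minimum level, and each simulated gene had the spread typical of its level. These rates therefore do not cover weaker genes or genes that vary more between libraries. Groups did not overlap for 423 genes lower (3.62%) and 377 genes higher (3.22%) in knockout.

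Several families that shape what a macrophage takes up and sends out overlapped between groups. The efferocytosis receptors Mertk and Axl, which bind dying cells through Gas6, stood at 162, 114 and 68.9 against 141, 124 and 116 and at 167, 113 and 91.9 against 43.5, 213 and 83.7. Stab1, a scavenger receptor, stood at 511, 339 and 229 against 203, 692 and 414, and the folate receptor Folr2 at 130, 65.0 and 50.7 against 46.5, 160 and 105. Knockout library 1 was low and knockout library 2 high in Axl, Stab1 and Folr2. Lyve1 reached at most 8.24 in any library, Timd4 was detected in 1 library (0.867) and Vsig4 stayed at or below 2.19. These genes of the resident-type scavenger list were thus close to absent. Stab1 and Folr2 are on the same list, as are Pf4 (1275 to 2395) and Mrc1 (222 to 825), so the list as a whole was not. Among secreted factors, progranulin (Grn, 1416, 1340 and 1350 against 1398, 1528 and 1200) was the most even, and the growth factor Igf1 (485, 273 and 120 against 182, 366 and 277) and the neutrophil chemokine Cxcl2 (1254, 1207 and 944 against 1051, 142 and 2170) varied within both groups.

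The genes that define macrophages showed no difference that passed the test. Of 17 macrophage identity genes, 7 had a log2 fold change above 0 and 10 below, with a median of -0.13 against 0.01 over all genes tested, and none had an unadjusted p under 0.05. Lysosome and V-ATPase genes (24 tested, median -0.10), efferocytosis genes (17, -0.06) and complement and Fc receptor genes other than C1q (12, -0.10) likewise had 0 below that level. Without knockout library 1, 902 of 12591 genes were below it. Among them were 2 macrophage identity genes and 4 of 15 complement and Fc receptor genes (C1q counted in the 15), all lower in knockout. Apoe, which takes up and carries lipid from the cell, stood at 15834, 13141 and 17867 in the controls and at 8877, 12520 and 14965 in the knockout libraries. The groups overlapped, and knockout library 1 was the lowest (log2 fold change -0.37, SE 0.34, edgeR quasi-likelihood adjusted p = 1.000).

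Among scavenger and lipid-associated genes, Spp1 had the clearest difference in level. Mrc1 stood at 825, 701 and 222 in the controls and at 489, 525 and 503 in the knockout libraries (log2 fold change -0.20, SE 0.45). Trem2 stood at 488, 583 and 659 against 206, 768 and 616 (-0.12, SE 0.46), and Gpnmb at 216, 512 and 484 against 425, 232 and 462 (-0.12, SE 0.41). All 3 overlap between groups, and the sign of each turned when a single library was left out. Of 20 lipid-associated genes, 19 had a log2 fold change below 0 (5675 of 11691 over all genes), with a median of -0.25. Of the 20, 1, Spp1, had an unadjusted p under 0.05 (1.34% of all genes were lower at that level). The list's count was 12 (median -0.10) without control library 2 and 13 (-0.16) without knockout library 1. Spp1 stood at 5447, 4480 and 7914 against 2438, 1260 and 3761, without overlap (log2 fold change -1.26, SE 0.45, unadjusted p = 0.0239, edgeR quasi-likelihood adjusted p = 1.000). Its log2 fold change was -0.53 with members taken from 5 C1q UMIs on. Spp1 is also a gene of bone cells, and neutrophil barcodes held 299, 941 and 1331 CPM of it in the controls and 2240, 1971 and 2780 in the knockout libraries, the opposite order. In cycling C1q macrophages Spp1 stood at 714, 3414 and 2056 CPM against 3759, 1917 and 2258. In monocyte barcodes it stood at 6958, 804 and 3178 CPM against 2528, 1456 and 2854, and the groups overlapped in both.

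The chains H2-Aa, H2-Ab1 and H2-Eb1 had lower values in every knockout library than in any control library, and no class II gene passed the test. H2-Aa was measured at 2619, 2247 and 1666 in control libraries 1 to 3 and at 555, 1513 and 1291 in knockout libraries 1 to 3. H2-Ab1 was measured at 2202, 2008 and 1564 against 516, 983 and 1003, and H2-Eb1 at 2013, 1844 and 1577 against 352, 1157 and 969. Knockout library 1 was the lowest in each. The log2 fold changes were -0.96 (SE 0.42) for H2-Aa, -1.21 (SE 0.35) for H2-Ab1 and -1.13 (SE 0.44) for H2-Eb1, with unadjusted p of 0.0507, 0.00875 and 0.0331 and adjusted p of 1.000 by edgeR's quasi-likelihood test. Cd74 overlapped, at 5824, 5504 and 4104 against 1531, 4802 and 3682, as did Ciita, H2-DMa, H2-DMb1 and H2-DMb2.

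Over the list, 8 of 10 genes were tested, all 8 had a log2 fold change below 0 (5675 of 11691 over all genes), 2 had an unadjusted p under 0.05 (1.34% of all genes were lower at that level) and 3 did not overlap (3.62% of all), and the median was -0.79. The genes summed to 11392 ± 1948 (SD, n = 3) scaled CPM in the controls and 6369 ± 2926 in knockout. The size depended on replicate 1 of both groups. The median was -0.46 without knockout library 1, -0.45 without control library 1 and -0.19 without both, where H2-Aa was at -0.48 and H2-Ab1 at -0.85. The count of 2 was 1 without control library 1, 2 or 3 or knockout library 3, and 4 without knockout library 2. Without knockout library 3, the library with Xist, the median was -0.70.

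The same genes in other cells of the libraries give context. Class II genes summed to 6601, 6813 and 6025 CPM against 1739, 3275 and 4590 in cycling C1q macrophages, again without overlap. In monocyte barcodes, taken by at least 3 UMIs of Ly6c2 and Ccr2, they summed to 14552, 13409 and 7574 against 6226, 11584 and 8603, and the groups overlapped. Neutrophil barcodes held 636, 498 and 422 against 110, 395 and 276, a small part of the members' level but in the same order. All other filtered barcodes held 667, 1874 and 1165 against 426, 1543 and 808, and overlapped. Whether the difference in members exceeds that in monocytes was not tested.

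Of 18 interferon-response genes, 7 had lower values in every knockout library than in any control, and none passed the adjusted threshold of edgeR with its filter on low counts. Interferons are cytokines released on sensing of viral or self nucleic acid, and Ifit1, Ifit2, Ifit3, Mx1, Rsad2 and Cmpk2 encode antiviral proteins that they induce. Cmpk2 was measured at 35.8, 25.9 and 29.9 in the controls and at 4.12, 9.82 and 3.65 in the knockout libraries (log2 fold change -2.29, SE 0.41, unadjusted p = 4.89e-04, edgeR quasi-likelihood adjusted p = 0.952). Mx1 was measured at 86.8, 25.2 and 29.9 against 10.6, 9.0 and 5.84 (-2.45, SE 0.52, and -1.73 without control library 1), and Ifit2 at 138, 28.1 and 53.5 against 7.06, 17.0 and 6.33 (-2.75, SE 0.64). Without knockout library 2 the log2 fold change was -3.41 for Ifit2 and -2.97 for Cmpk2. It was -1.80 for Ifit2 without replicate 1 of both groups and -2.01 for Cmpk2 without knockout library 3. In all of these, every control library was above every knockout library, and control library 1 was the highest. DESeq2 called Cmpk2, Ifit2 and Mx1, each at an adjusted p of 0.00610.

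Ifit1 (77.0, 48.2 and 44.4 against 21.8, 20.6 and 5.6), Ifit3 (103, 37.6 and 66.5 against 10.0, 35.5 and 5.6) and Rsad2 (222, 105 and 97.5 against 81.2, 30.4 and 16.3) had the same order of groups. Of the 18 genes of the interferon list, which does not hold Cmpk2, 16 had a log2 fold change below 0, 7 had an unadjusted p under 0.05, all of them lower (1.34% of all genes), 7 did not overlap (3.62% of all), and the median was -0.82. Ifitm3 (730, 673 and 858 against 1088, 952 and 395) and Ifi27l2a (639, 566 and 828 against 739, 1456 and 417), the most abundant genes of the list, were not lower, and the sum over the list was 3052 ± 384 against 2689 ± 1116. The count of 7 was 4 without control library 1 and with replicate 3 of both groups left out, and without knockout library 3 the median was -0.56 with 12 genes below 0. By DESeq2, 2 of the 18 passed an adjusted p of 0.05, and by edgeR without its filter on low counts 5 did, all lower. The fit without the filter also called genes high mainly in a single library, such as Xist.

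**Figure D4:**
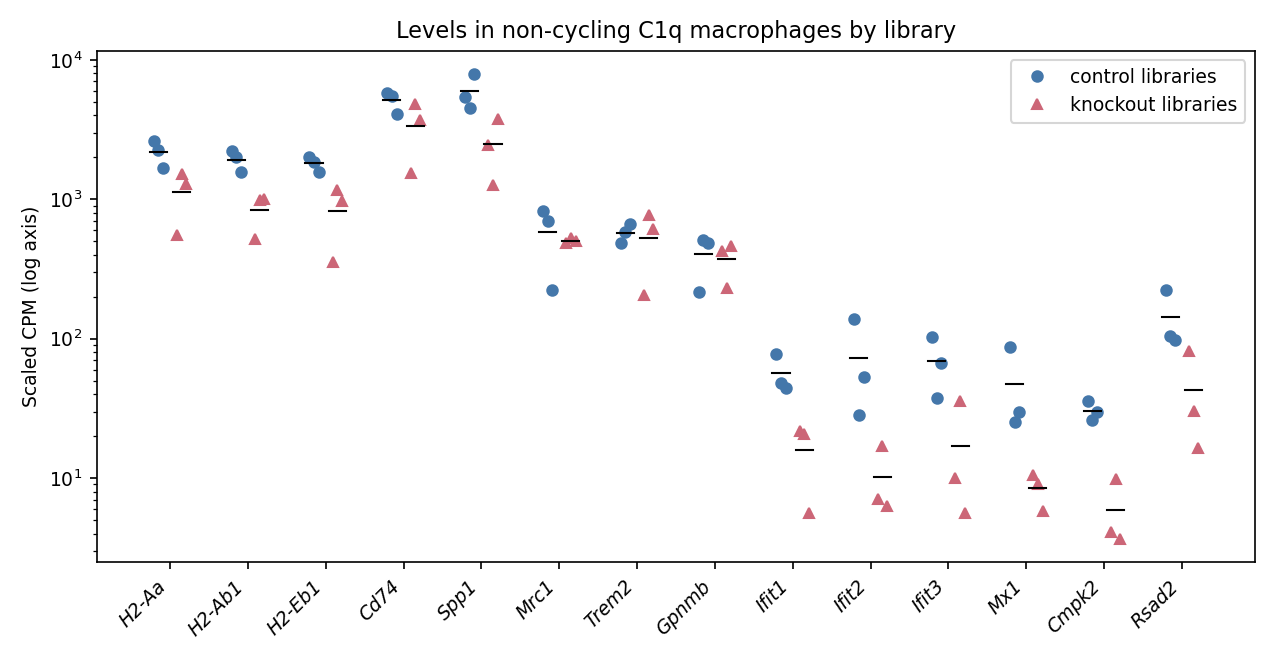
Scaled CPM on a log axis for class II, scavenger, lipid-associated and interferon-induced genes, with 1 point per library (circles, control; triangles, knockout) and a bar at each group mean. H2-Aa, H2-Ab1, H2-Eb1, Spp1 and the 6 interferon-induced genes do not overlap between groups, and Mrc1, Trem2, Gpnmb and Cd74 do.

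Interferon-induced transcripts were spread unevenly over the members. For 8 genes picked after their values were seen (Ifit1, Ifit2, Ifit3, Rsad2, Mx1, Usp18, Cmpk2 and Oasl1), the 10% of members with the most of these UMIs held 73.4%, 85.3% and 79.9% of them in the controls and 70.4%, 56.1% and 67.4% in knockout. The same share was 43.4% to 68.0% for Pf4, and for class II genes 41.1%, 46.3% and 60.7% in the controls and 80.7%, 69.9% and 71.6% in knockout. Members with none of these UMIs made up 27.1% and 42.9% in the deep control library 1 and knockout library 1 and 53.1% to 72.8% elsewhere. The 8 genes together gave 840, 310 and 355 CPM of the members in the controls and 176, 146 and 53.0 in knockout. Monocyte barcodes of the same libraries had Mx1 at 25.9, 19.3 and 29.8 CPM against 11.8, 28.6 and 8.18 and Ifit3 at 19.8, 6.63 and 42.3 against 6.85, 35.3 and 10.2, with overlap in both. Outside the members, Ifit1 and Ifit2 showed the same order in part of the other cells. All other filtered barcodes held Ifit1 at 18.6, 32.3 and 22.1 CPM against 10.9, 14.1 and 4.98 and Ifit2 at 13.1, 13.3 and 10.4 against 6.84, 8.09 and 6.44, and cycling macrophages held Ifit2 at 35.2, 8.31 and 12.4 against 8.03, 5.10 and 5.07, all without overlap. Mx1, Cmpk2, Rsad2 and Usp18 overlapped in both kinds of barcodes and Ifit1 in cycling macrophages, and Ifit3 overlapped in cycling macrophages and met at 15.4 in the other barcodes. Whether the difference was larger in the members was not tested.

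Other groups gave isolated genes. Knockout library 1 was the highest in Chil3 (897, against at most 83.0), Thbs1 (1203, against at most 728) and Saa3 (2467, with control library 3 at 1051 and the others at or below 20.1). Chil3 marks alternatively activated macrophages, Thbs1 encodes a matrix protein and Saa3 an acute-phase protein. Among repair growth factors, Pdgfa stood at 97.6, 91.3 and 135 against 51.8, 69.9 and 80.5 (log2 fold change -0.68, SE 0.27, unadjusted p = 0.0338), and Igf1, Tgfb1 and Vegfa overlapped. Resident-type scavenger genes (13 tested, median 0.28), CC chemokines (10, -0.34), inflammatory cytokines (17, -0.10), iron and heme genes (13, 0.22), cholesterol efflux genes (16, -0.08) and hypoxia and glycolysis genes (15, 0.14) had none with an unadjusted p under 0.05, and alternative activation genes (12, -0.06) had 1, Chil3. The inflammatory median was 0.33 without control library 2. It was -0.31 without knockout library 1, where 3 of these genes were lower at that level. The scavenger median was -0.21 without knockout library 2.

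The remaining lists cover other cell types and the state of the cells. Monocyte genes (13 tested, median 0.31) had 1 gene higher with an unadjusted p under 0.05, Chil3, and their median was -0.60 without knockout library 1. Osteoclast genes outside the rule (7, 0.41) had 1, Mmp9 (13, 42.0 and 33.2 against 25.3, 298 and 64.5), and cell cycle genes outside the rule (14, 0.55) had 1, Ccna2. Of all genes, 1.39% were higher at that level. Top2a and Mki67, whose UMIs the rule limited, are included in the next count, which is therefore a description. Without knockout library 1, 8 of 16 cell cycle genes were higher at that level (median 0.91). There, 902 of 12591 genes had an unadjusted p under 0.05 in either direction. Without knockout library 2 the cell cycle count was 0 (median 0.16). Neutrophil genes (12, 0.59), endothelial genes (8, 0.23), lymphocyte genes (3, -0.17) and erythroid genes (4, -2.32) had none, and the last followed control library 3, with Hbb-bs at 708 there and at most 87.4 elsewhere. With 1 library left out, the neutrophil median ranged from 0.08 without control library 1 to 2.30 without control library 2, where 3 genes had an unadjusted p under 0.05. Dissociation stress genes (15, -0.40) also had none, with knockout library 2 the lowest at a sum of 3125 scaled CPM against 8271 to 11168 in the others. Without that library the median of these genes was 0.01. Nuclear and rRNA-overlapping genes (4, -0.50) had none, with a median of 0.30 without control library 1 and -1.22 without knockout library 1. Dendritic genes (5, -0.43) had 1, Itgax, at 27.1, 50.4 and 41.2 against 14.7, 20.6 and 24.8, and their median was 0.09 without control library 2.

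**Figure D5:**
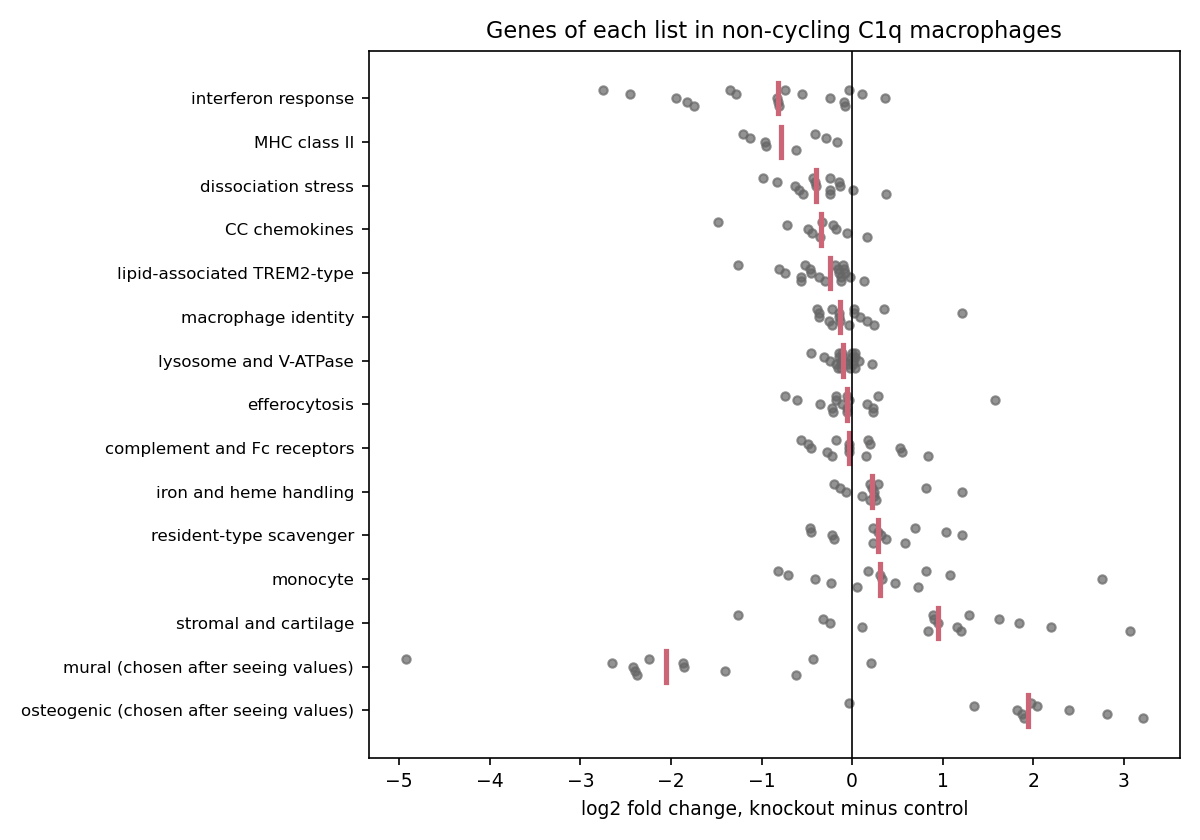
Log2 fold change between knockout and control (horizontal axis) for each tested gene (grey points) of 15 gene lists (rows), with the median as a red line. The interferon (median -0.82) and class II (-0.79) lists lie mostly below 0 and the macrophage identity list (-0.13) around it; the 2 lowest rows were picked after their values were seen.

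The genes with the smallest p-values were mostly not macrophage genes. Higher in knockout were Phex, Slc13a5, Gfra4, Slc8a3 and Cpne8, of which Phex, an endopeptidase of osteocytes, stood at 3.25, 0.730 and 1.73 against 15.3, 11.6 and 19.5 (log2 fold change 3.21, SE 0.51, edgeR quasi-likelihood adjusted p = 0.884). Lower were Aoc3, Olfr558, Myl9, Cmpk2 and Gm11713, of which Myl9, a myosin light chain of smooth muscle, stood at 55.3, 28.8 and 61.6 against 13.5, 13.1 and 13.4 (-1.86, SE 0.32, adjusted p = 0.884). With members taken from 5 C1q UMIs on, the log2 fold change was 1.54 for Phex and -1.18 for Myl9. DESeq2 called Phex (DESeq2 adjusted p = 0.00231), Slc13a5, Aoc3, Olfr558, Myl9 and Cmpk2, and not Gfra4, Slc8a3, Cpne8 or Gm11713. Aoc3 (15.2, 12 and 15.4 against 4.12, 2.29 and 2.19) and Olfr558 (11.9, 9.86 and 3.47 against 0.588, 0.491 and 0.487) were low in all libraries.

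Genes of other callus cells are therefore given for whole lists, although none passed the adjusted threshold of edgeR with its filter on low counts. The stromal and cartilage list had 12 of 15 genes above 0 (6016 of 11691 over all genes; median 0.95), 3 higher with an unadjusted p under 0.05 (1.39% of all) and 1 lower (1.34% of all), Spp1, its most abundant gene. The median was 1.52 without control library 1 and 0.59 without control library 2. The list summed to 28229, 10596 and 21956 CPM of the members in the controls and to 38695, 20084 and 43682 in the knockout libraries, with overlapping groups. In neutrophil barcodes the same sums were 24592, 15124 and 21648 against 53572, 40440 and 47804. As a share of UMIs these transcripts were thus higher in neutrophil barcodes than in members in all 3 knockout libraries. Neutrophil barcodes were less deep there, with medians of 5679, 3384 and 3999 UMIs against 16338, 7224 and 7758 in members. Sparc, a matrix protein of bone cells, stood at 3102, 961 and 2061 CPM in members against 6033, 3979 and 8141, and in neutrophils at 2896, 2619 and 3155 against 7563, 8250 and 9680. With the members of over 5% stromal UMIs left out, the list summed to 16752, 7533 and 10658 against 9491, 7708 and 13582, with overlapping groups, and 7 of 7 class II genes tested were below 0, with a median of -0.91. Of the interferon list, 16 genes of 18 were then below 0 and 7 had an unadjusted p under 0.05.

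Genes of pericytes and smooth muscle are given as a description, from a list of 14 written after their values were seen, whose counts follow from that choice. Of 12 tested, 9 had lower values in every knockout library than in any control (3.62% of all genes), and Pdgfrb, Abcc9 and Cspg4 overlapped. It summed to 1236, 615 and 648 against 368, 113 and 267, led by Rgs5 (301, 253 and 143 against 91.2, 14.4 and 27.2), and DESeq2 called 6 of them (0.137% of all genes), among them Tagln and Acta2. All other filtered barcodes had the same order, at 1730, 2590 and 2720 against 1149, 487 and 978 CPM. With the members of the highest Scrublet scores left out, the members' sum was 1459, 122 and 135 against 238, 85.1 and 171 CPM, and the groups overlapped. The part of such barcodes in the other results was not tested beyond this. Without the same members, class II genes summed to 15478, 12351 and 9670 CPM in the controls and 3617, 9119 and 7442 in knockout, still without overlap, and 7 interferon genes of 18 had an unadjusted p under 0.05.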

How the data were processed

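Callus cells were sequenced as 10x Genomics 3′ libraries. The submitters' processing notes name Cell Ranger, Seurat and GRCm38, and per the file headers Cell Ranger 6.1.1 and 6.1.2 wrote the matrices. The deposited values are raw counts of UMIs per gene and barcode, with no normalization. Libraries were joined on 52081 gene identifiers (97.8% or more of every library's UMIs).

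The members, gene lists and comparisons were chosen with earlier results of these data known. UMIs of members were summed per library and tested with edgeR 4.0.16 in R 4.3.3 (filterByExpr, TMM, glmQLFTest), with group as the sole term and Benjamini-Hochberg adjustment over all genes tested. A printed SE is the log2 fold change over the square root of F. The procedure was tested on simulated data with known changes. Shares were compared by exact permutation (scipy 1.17.1). Where libraries are not separate mice, p-values measure technical spread only. Doublets were not removed, and Scrublet scores (scanpy 1.11.5) served an alternative that left out the highest 0.8% of a library per 1000 barcodes.

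Named were the genes of the rule and markers, leading genes of each list, the 20 most abundant genes, those of highest ratio to other barcodes, those differing most with class II UMIs, and the 5 smallest p-values in each direction. The pericyte list, an osteogenic list (12 genes, 10 tested, 9 above 0, median 1.94) and the 8 interferon-induced genes followed by cell were chosen after their values were seen, as were the genes of uptake and secretion given singly. Alternatives were DESeq2 1.42.0, RLE factors, no filter on low counts, a replicate block, libraries left out, other thresholds for cells, other thinning, and genes left out before scaling. Promoters came from RefSeq on GRCm38.p6 and gene positions from GENCODE M21.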

Additional observations from a re-analysis of the deposited data

How the results depend on the processing

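The count of 0 genes held under every edgeR alternative except that without a filter on low counts (149), and DESeq2 called 16. The cause was not tested. The difference in the share of members ranged from -0.116 to 3.09 percentage points over the libraries left out in turn. The difference in Mrc1 share was 3.73 without thinning and -10.8 to 5.10 with a library left out, that in Trem2 share -6.85 to 3.91. That in Gpnmb share was -0.936 at 2 UMIs or more, -0.0232 at 20 C1q UMIs or more, -0.0418 without the highest Scrublet scores and -5.11 to 3.86 with a library left out. The class II share kept its direction throughout, from -24.0 to -13.7 with a library left out. Log2 fold changes near 0 changed sign, namely Mrc1 (0.15 without replicate 1 of both groups), Trem2 (0.15 without replicate 1), Pf4 (0.01 without replicate 3) and Piezo1 (0.09 without replicate 3, 0.12 at 5 C1q UMIs). With a library left out singly they spanned -0.59 to 0.13 for Mrc1, -0.49 to 0.26 for Trem2, -0.42 to 0.13 for Gpnmb and -0.34 to 0.01 for Piezo1. H2-Aa, H2-Ab1, H2-Eb1 and the 6 interferon-induced genes plotted by library kept their direction under all 19 alternatives. The alternatives on stromal UMIs were chosen after seeing the data. Replicate numbers did not pair the samples in their values (correlations of deviations 0.16, 0.07 and 0.00, against -0.19 to 0.18 between unlike numbers). Replicate 1 of both groups nevertheless shared a Cell Ranger version, and replicate 3 a gene list. A replicate block gave 0 calls, with 351 genes at an unadjusted p under 0.05. List medians with the block were -0.39 (monocyte), -0.62 (inflammatory cytokines), -0.74 (dissociation stress) and -0.74 (erythroid). Depth limits weak genes most, since 48 and 84 members carry control library 1 and knockout library 1.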
